A study of Mus musculus with 54 samples.

Results

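Whole-liver RNA from RE mice was compared with whole-liver RNA from KO mice at ZT20, late in the night (ZT, zeitgeber time, counts hours from lights on). The members were the 3 RE and the 3 KO libraries labelled ZT20, 6 of the 54 libraries of the series, and the comparison ran across every gene with enough signal, 10932 of 24346 in the table. KO mice carry a floxed STOP in the core clock gene Bmal1 (symbol Arntl). RE mice carry the same floxed STOP together with Syt10-Cre, which rescues Bmal1 in the suprachiasmatic nucleus, so the liver of both genotypes is meant to lack BMAL1. The 3 WT livers of ZT20, from mice that express Bmal1 in all tissues, served as a reference for level. The rescue rests on where the Syt10 promoter drives Cre. Strain, age, sex, feeding and the light schedule are not stated in the labels used here. The question was which genes of a liver without its own clock differ when the brain clock is present, at this time of night.

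BMAL1 pairs with CLOCK or NPAS2 and activates genes through E-box elements, among them the Per and Cry genes, whose products repress the pair, and the REV-ERB genes Nr1d1 and Nr1d2, which repress Arntl. The suprachiasmatic nucleus is the hypothalamic pacemaker that is set by light and that times feeding, body temperature and glucocorticoid release. Through those signals it can reach the liver without the liver's own clock. In mice the night is the active and feeding phase, when lipid and cholesterol synthesis in the liver usually run higher than during the day.

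The 6 libraries resembled each other. Pearson correlations of log2(FPKM + 1) across the 10932 genes lay between 0.979 and 0.989 for an RE with a KO library, between 0.985 and 0.987 within KO, and between 0.982 and 0.985 within RE. These are correlations across genes, which are not independent replicates. The 3 WT libraries stood farther off, with correlations of 0.969 to 0.973 to RE and 0.966 to 0.974 to KO. FPKM summed to between 641740 and 716450 per library and 14930 to 15576 genes were above 0. Read counts are not in the table, but the steps between the lowest values placed the depth of the other 5 libraries at 1.04 to 1.93 times that of KO liver 1. Over genes, the SD between the 3 livers of ZT20 had a median of 0.115 in KO, 0.154 in RE and 0.12 in WT (log2). Hepatocyte markers other than Alb summed to 19009 to 29435 FPKM in the 6 livers. Alb was listed at 0 in RE liver 0 and in all 3 WT livers while the other 5 RE and KO livers read 12200 to 20000 FPKM, so it was left out of that sum. Livers are named by the number of their column, 0 to 2. Beyond the titles nothing states that they came from separate animals, so the p-values rest on a spread between samples. That spread was estimated over all 18 groups of the series, not from the ZT20 livers alone.

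No gene was called different between RE and KO liver at ZT20. limma's moderated test on log2(FPKM + 1), with Benjamini-Hochberg adjustment over all 10932 genes, called 0 genes higher and 0 lower (0% called). Without adjustment 553 genes had a p under 0.05, which is 5.06% of those tested, and the smallest adjusted p was 0.254. The unadjusted count rested on single livers: it was 238 without RE liver 0, 243 without KO liver 0 and 1051 without RE liver 2. All 3 RE livers lay above all 3 KO livers for 553 genes (5.06%) and below them for 626 genes (5.73%), so the 2 groups of livers did not overlap for 10.8% of genes. Groups of 3 livers can separate in this way without a true difference, so this share is not a count of changed genes. A p that misses the threshold does not show that a gene had the same level, and the intervals give what the design could see. The median SE was 0.14 (log2). The 95% interval of the difference lay inside 1 log2 unit in both directions for 10433 genes (95.4%) and inside 0.5 for 7731 genes (70.7%). The quartiles of the differences were -0.10 and 0.10, and 47 genes had a fitted difference of at least 1. Among these were Alb, listed at 0 in RE liver 0, and Hba-a1 and Hba-a2, which can share reads.

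**Figure D1:**
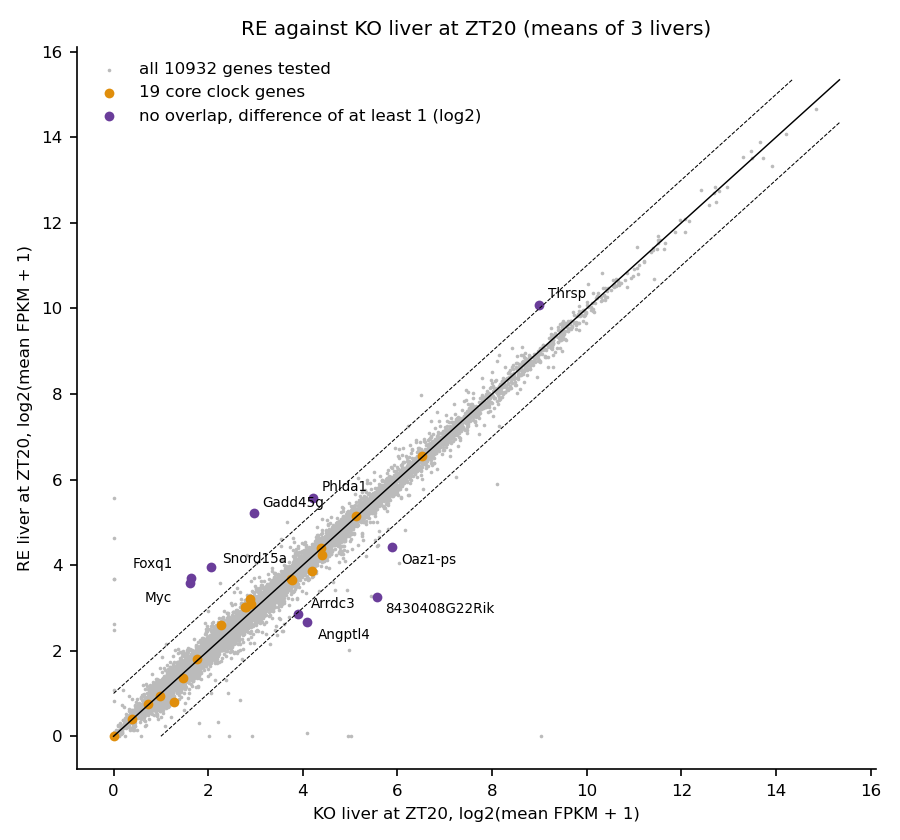
Mean level of each of the 10932 genes tested in KO liver (x axis) and RE liver (y axis) at ZT20, as log2(mean FPKM + 1) over 3 livers. The solid line marks equal levels and the dashed lines a difference of 1 log2 unit. Orange points are the 19 core clock genes, all within the dashed lines. Purple points are the 10 genes of at least 5 FPKM whose groups did not overlap and whose fitted difference was at least 1.

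The same test at the other contrasts gave the following counts. At ZT16, 4 h earlier, 208 genes were called higher and 150 lower in RE than in KO (3.27% called), with 2629 at an unadjusted p under 0.05. That count rested on single livers: it was 3 without KO ZT16 liver 1, 10 without RE ZT16 liver 2, 154 without KO ZT16 liver 0, 636 without RE ZT16 liver 0 and 829 without RE ZT16 liver 1, and it was 0 with the 6 ZT16 libraries fitted alone. At ZT0, 4 h later, limma called 0 genes, with 826 at an unadjusted p under 0.05 and a smallest adjusted p of 0.0721. The difference between the ZT20 and the ZT16 contrast was itself tested gene by gene and called 0 genes, with 990 at an unadjusted p under 0.05 and a smallest adjusted p of 0.353. Between ZT20 and the mean of the other 5 times limma also called 0 genes (564 unadjusted, smallest adjusted p 0.925). So no gene was shown to have a ZT20 difference apart from that at the other times. Against WT at ZT20, 743 genes were called higher (6.8%) and 527 lower (4.82%) in RE, 11.6% in all. In KO 610 were called higher (5.58%) and 414 lower (3.79%), 9.37% in all. These last comparisons share the WT libraries with each other and the RE or KO libraries with the main comparison.

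Arntl (chromosome 7, 113178471 to 113314126, mm10), the targeted gene, read 14.2, 10.9 and 12.6 FPKM in KO livers 0, 1 and 2. In RE it read 10.3, 12.3 and 12.1 FPKM, and in WT 10.1, 8.38 and 9.43 FPKM. The KO and RE livers overlapped, with a difference of -0.11 (95% interval -0.46 to 0.25, adjusted p = 0.976), and the WT livers lay below all 6. Neither RE minus WT (0.29, adjusted p = 0.304) nor KO minus WT (0.39, adjusted p = 0.158) was called. The table holds 1 value per gene and does not resolve the floxed STOP, so the level of Arntl does not check the KO and RE labels, and the groups are named by their labels throughout.

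Of the 19 core clock genes, all tested, 0 were called between RE and KO at ZT20 (0% of all genes). All 19 intervals lay inside 1 log2 unit. For genes near or below 1 FPKM the log2(FPKM + 1) scale narrows any difference, so their intervals say little about equal levels. Among these were Ciart (at most 0.466 FPKM in a KO or RE liver), Nr1d1 (at most 1.02), Per3 (at most 1.04) and Bhlhe41. The differences ran from -0.49 to 0.34 with a median of 0.01, where the median over all genes was -0.00. 10 were positive and 9 negative. Nr1d2 alone had all 3 RE livers on one side of the KO livers and alone had an unadjusted p under 0.05.

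**Figure D2:**
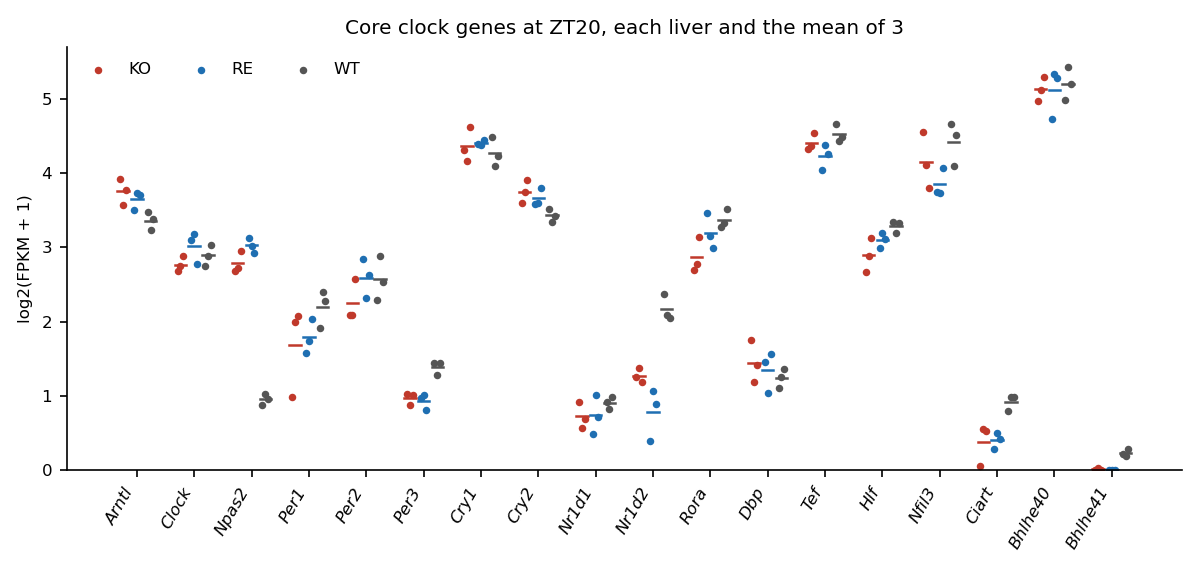
Core clock genes at ZT20 in KO (red), RE (blue) and WT (grey) liver, as log2(FPKM + 1). Each point is 1 liver and each bar the mean of 3. RE and KO points overlap for every gene shown but Nr1d2, while Npas2 lies above WT and Per3, Nr1d2 and Ciart below WT in both.

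Among the activators, Npas2 (chromosome 1, 39193702 to 39363240), the partner of BMAL1 that can replace CLOCK, read 5.40, 5.61 and 6.72 FPKM in KO and 7.76, 7.13 and 6.61 in RE. The groups overlapped (difference 0.24, 95% interval -0.23 to 0.71). WT livers read 0.847, 1.03 and 0.942 FPKM, below every RE and KO liver. Npas2 was called higher than WT in RE (2.07, adjusted p = 1.69e-08) and in KO (1.83, adjusted p = 2.7e-07). Clock, the main partner, read 5.42, 5.70 and 6.35 FPKM in KO and 7.54, 8.02 and 5.85 in RE, where RE liver 2 fell between KO livers (0.25, 95% interval -0.13 to 0.62). At ZT16 the RE to KO difference of Clock was called (0.64, adjusted p = 0.0449).

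Among the repressors, Per1, which also responds to glucocorticoids, read 0.985, 2.99 and 3.22 FPKM in KO and 1.99, 2.35 and 3.10 in RE. KO liver 0 was the lowest, and the other livers overlapped (0.10, 95% interval -0.64 to 0.83). Per1 was called higher in RE at ZT16 (1.47, adjusted p = 0.0247). Per2 read 3.26, 3.27 and 4.94 FPKM in KO and 6.14, 3.97 and 5.19 in RE, the largest positive difference of the list (0.34, 95% interval -0.24 to 0.93), with overlap. Cry1 and Cry2 differed by 0.04 and -0.08. Per3 (chromosome 4, 150997018 to 151044707) read 1.04, 0.833 and 1.01 FPKM in KO and 0.972, 1.01 and 0.756 in RE. All 6 livers shared 1 range, and the difference was -0.04 (95% interval -0.32 to 0.24). WT livers read 1.72, 1.42 and 1.72 FPKM, above all of them. Per3 was called lower than WT in RE (-0.45, adjusted p = 0.025) and in KO (-0.42, adjusted p = 0.0479).

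Ciart (chromosome 3, 95878500 to 95882257), a repressor of CLOCK and BMAL1, read 0.0424, 0.466 and 0.448 FPKM in KO and 0.217, 0.418 and 0.339 in RE. KO liver 0 was close to 0, and the RE livers lay between it and the other KO livers (0.02, 95% interval -0.30 to 0.34). WT livers read 0.741, 0.988 and 0.976 FPKM. Ciart was called lower than WT in RE (-0.52, adjusted p = 0.0242) and in KO (-0.54, adjusted p = 0.0223). At values this low the log2(FPKM + 1) scale understates a ratio.

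The promoters of Per3 and Ciart are printed because these genes were below WT in both genotypes and hold the clock elements that can be read directly. They were chosen after their values were seen. The bases upstream of the gene are from RefSeq on GRCm38.p6 (mm10), minus strand, at chr4:151044708-151044915 for Per3 and chr3:95882258-95882478 for Ciart. Capitals mark the D-box TTATGTAA, bound by the PAR bZIP factors and NFIL3, in Per3, and the E-box CACGTG, bound by BMAL1 with CLOCK or NPAS2, in Ciart.

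Per3: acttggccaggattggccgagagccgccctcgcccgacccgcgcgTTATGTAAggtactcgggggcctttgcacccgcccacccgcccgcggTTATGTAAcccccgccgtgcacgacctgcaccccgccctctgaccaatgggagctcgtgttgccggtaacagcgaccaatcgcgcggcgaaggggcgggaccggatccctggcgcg

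Ciart: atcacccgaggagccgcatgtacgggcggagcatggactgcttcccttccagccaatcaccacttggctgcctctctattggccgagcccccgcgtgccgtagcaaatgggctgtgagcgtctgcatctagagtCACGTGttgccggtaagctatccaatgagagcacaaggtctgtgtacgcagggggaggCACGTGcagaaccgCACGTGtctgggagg

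Per3 held 2 D-boxes and no CACGTG, and Ciart held 3 E-boxes and no TTATGTAA. Both strands were searched. Over 32851 RefSeq windows of 300 bases around gene starts, 7.15% held the E-box and 0.938% the D-box. Of the 16 core clock genes with such a window, 5 held an E-box and 1 a D-box in any of their windows. Some of these genes have more than 1 window, so these counts per gene are not the same measure as the shares per window. Nr1d2, also called lower than WT in both RE and KO, held neither element in its window. A match or its absence describes the letters of these windows only.

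Among the nuclear receptors, Nr1d2 (REV-ERB beta; chromosome 14, 18204056 to 18239106) read 1.39, 1.60 and 1.27 FPKM in KO and 0.313, 1.09 and 0.860 in RE. All RE livers lay below all KO livers, with RE liver 0 the lowest. The difference of -0.49 (95% interval -0.94 to -0.04) had an unadjusted p of 0.0321 and an adjusted p of 0.954 with limma. WT livers read 4.18, 3.27 and 3.13 FPKM, and Nr1d2 was called lower than WT in RE (-1.39, adjusted p = 1.98e-05) and in KO (-0.90, adjusted p = 0.00598). Nr1d1 (REV-ERB alpha) read 0.890, 0.487 and 0.613 FPKM in KO and 0.397, 1.02 and 0.645 in RE, with full overlap (0.01, 95% interval -0.46 to 0.48). Rora, an activator of Arntl, read 5.48, 5.87 and 7.77 FPKM in KO and 10.002, 7.86 and 6.94 in RE, with overlap through RE liver 2 (0.33, 95% interval -0.01 to 0.67). The PAR bZIP factors Dbp, Tef and Hlf, which carry clock output to metabolic genes, differed by -0.10, -0.18 and 0.21. Nfil3, whose product also binds the D-box, differed by -0.30, and none of them was called. Bhlhe40 differed by -0.01, and Bhlhe41 was at most 0.0225 FPKM in the 6 livers.

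Of 16 clock output genes, 0 were called between RE and KO and the median difference was 0.08. Nampt, the rate-limiting enzyme of NAD salvage, read 8.15, 9.76 and 12.2 FPKM in KO and 12.4, 13.7 and 12.3 in RE. All RE livers lay just above all KO livers (0.34, 95% interval 0.01 to 0.66, adjusted p = 0.954). In WT it read 20.6, 21.3 and 19.2 FPKM and was called lower in RE (-0.63, adjusted p = 0.00731) and in KO (-0.97, adjusted p = 5.02e-05). Gys2, liver glycogen synthase, read 31.3, 30.5 and 38.5 FPKM in KO and 38.5, 40.04 and 35.1 in RE, with overlap (0.18, 95% interval -0.11 to 0.47). WT livers read 64.0 to 83.5 FPKM, and both genotypes were called lower (RE -0.94, adjusted p = 9.92e-06, KO -1.12, adjusted p = 3.04e-07). Insig2, which holds the SREBP escort in the endoplasmic reticulum, read 207, 227 and 236 FPKM in KO and 281, 269 and 311 in RE, without overlap (0.36, 95% interval -0.10 to 0.82, adjusted p = 0.954). It was called higher than WT in RE (0.82, adjusted p = 0.0125), and KO minus WT was 0.46 (adjusted p = 0.214).

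The functional gene lists gave no call either: 0 members of any of the 28 lists passed at ZT20. Genes of cholesterol synthesis and uptake had the highest median, 0.33 over 26 tested members, with 24 positive, against 5354 positive of 10932 over all genes. At ZT16 the median of the same list was -0.47 and at ZT0 0.06, with 0 called at either time, and the difference between ZT20 and ZT16 was called for 0 members (median 0.92). Only 11 of the 26 intervals lay inside 1 log2 unit. All RE livers lay above all KO livers for 0 of the 26, where 5.06% of all genes did. Hmgcs1, the cytosolic HMG-CoA synthase of the pathway, read 203, 270 and 374 FPKM in KO and 627, 496 and 311 in RE, with RE liver 2 among the KO livers (0.74, 95% interval -0.20 to 1.69, adjusted p = 0.954). Insig1, a sterol-sensitive SREBP target, read 118, 190 and 227 FPKM in KO and 315, 281 and 197 in RE (0.59, 95% interval 0.02 to 1.16, adjusted p = 0.954), with the same liver inside the KO range. Against WT, 6 of the 26 were called higher in RE (Hmgcs1, Mvk, Idi1, Lss, Msmo1 and Hsd17b7) and 0 in KO, where 6.8% of all genes were called higher in RE and 5.58% in KO. Whether RE and KO differ for these 6 is the comparison above, which called none.

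**Figure D3:**
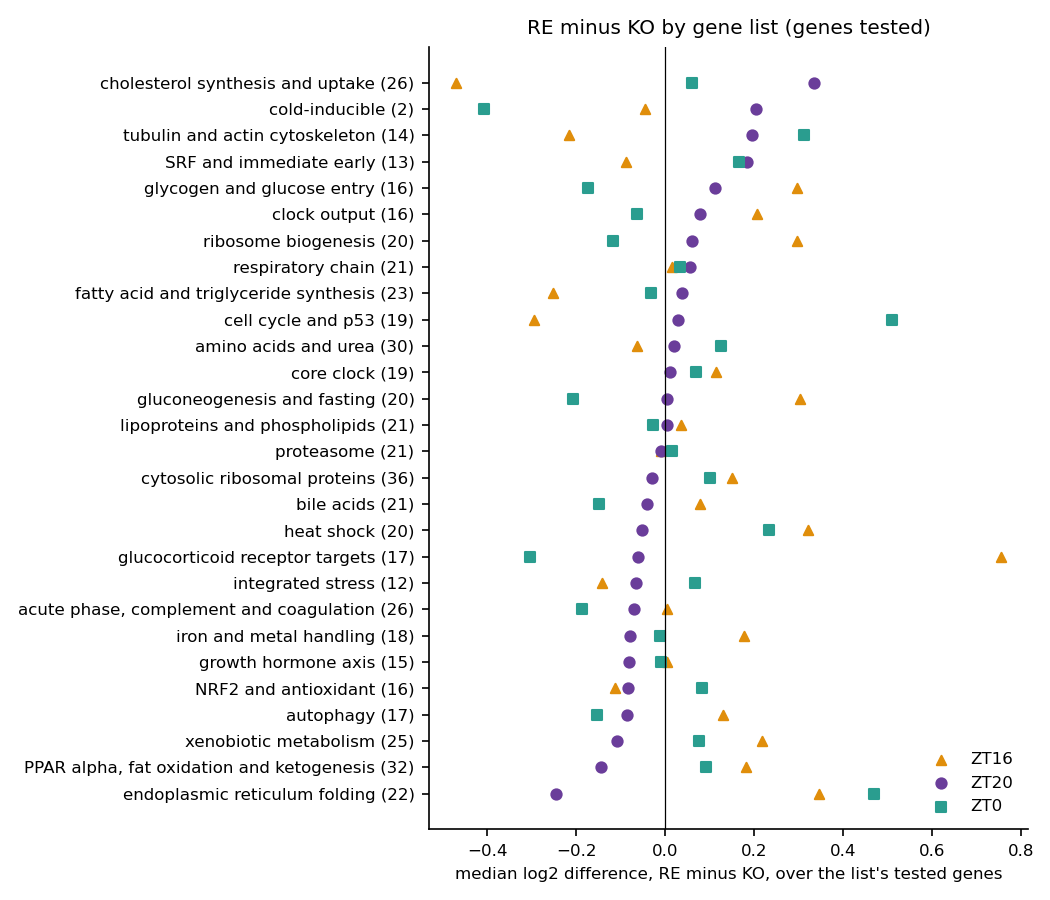
Median log2 difference, RE minus KO, over the tested members of each of the 28 functional gene lists (number tested in parentheses) at ZT16 (triangles), ZT20 (circles) and ZT0 (squares). At ZT20 the medians lie between -0.25 and 0.33, with cholesterol synthesis and uptake at the top and endoplasmic reticulum folding at the bottom.

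Fatty acid and triglyceride synthesis had a median of 0.04 over 23 members. Acaca, which makes malonyl-CoA at the rate-limiting step, read 14.4, 13.5 and 17.9 FPKM in KO and 20.8, 21.96 and 16.0 in RE, with overlap (0.33, 95% interval -0.21 to 0.88). Fasn, fatty acid synthase, read 44.6, 52.4 and 85.7 FPKM in KO and 146, 102 and 71.6 in RE, with RE liver 2 inside the KO range (0.79, 95% interval -0.15 to 1.74, adjusted p = 0.954). Scd1, the stearoyl-CoA desaturase, differed by -0.02 (95% interval -1.01 to 0.98) and was called lower than WT in RE (-1.96, adjusted p = 0.00581) and in KO (-1.94, adjusted p = 0.00777).

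The PPAR alpha and fat oxidation list had a median of -0.14 over 32 members, of which 5 were positive and 27 negative, and 0 were called. All RE livers lay below all KO livers for 4 of the 32, where 5.73% of all genes did. Cpt1a, the gate of fatty acid entry into mitochondria (chromosome 19, 3322326 to 3385735), read 43.8, 42.0 and 45.0 FPKM in KO and 25.7, 32.5 and 35.2 in RE. The groups did not overlap, and the KO livers were tighter than the RE livers (-0.48, 95% interval -1.04 to 0.07, adjusted p = 0.954). WT livers read 53.9, 48.7 and 55.1 FPKM. Cyp4a10, a fatty acid omega-hydroxylase, read 35.9, 85.9 and 19.4 FPKM in KO and 8.78, 2.77 and 51.7 in RE, with overlap through RE liver 2 (-1.69, 95% interval -3.80 to 0.42). At ZT16 the sign was the other way and the gene was called (3.61, adjusted p = 0.0456).

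Other rate-limiting enzymes were not called. Pck1, of gluconeogenesis, read 476, 541 and 734 FPKM in KO and 265, 343 and 578 in RE, with overlap through RE liver 2 (-0.61, 95% interval -1.60 to 0.37). Cyp7a1, of bile acid synthesis, read 37.2, 70.2 and 63.4 FPKM in KO and 44.6, 87.1 and 14.0 in RE, so RE held both the highest and the lowest liver (-0.51, 95% interval -1.62 to 0.60). Alas1, of haem synthesis, read 132, 177 and 43.1 FPKM in KO and 73.8, 69.0 and 225 in RE (0.06, 95% interval -1.67 to 1.79), an interval wider than 1 log2 unit on both sides.

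Lists tied to daily systemic signals held no call at ZT20. Glucocorticoid receptor targets had a median of -0.06 over 17 members, where it was 0.76 at ZT16 with 1 called (Per1) and -0.30 at ZT0. Fkbp5, a chaperone of the receptor and one of its targets, read 3.88, 5.17 and 4.84 FPKM in KO and 3.70, 3.28 and 3.87 in RE, just below the KO livers without overlap (-0.28, 95% interval -1.15 to 0.58). Tsc22d3, another target, read 62.4, 84.4 and 140 FPKM in KO and 75.6, 91.5 and 99.6 in RE, with overlap (-0.03, 95% interval -0.76 to 0.70). Heat shock genes had a median of -0.05 over 20 members, and the cold-inducible Cirbp and Rbm3 differed by 0.09 and 0.32. Endoplasmic reticulum folding genes had a median of -0.25 with 19 of 22 negative and 0 called, where the medians were 0.34 at ZT16 and 0.47 at ZT0. Hspa5, the chaperone BiP, read 486, 384 and 453 FPKM in KO and 386, 300 and 587 in RE, with RE below and above the KO range (-0.11, 95% interval -0.77 to 0.56).

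A rule of size picked out the genes with the widest separation: 5 FPKM or more as the mean of one of the groups, no overlap, and a difference of at least 1. This rule was set after values had been seen, and its genes are a description. It held 10 genes, 6 higher in RE (Gadd45g, Myc, Foxq1, Phlda1, Thrsp and Snord15a) and 4 lower (Angptl4, Arrdc3, Oaz1-ps and 8430408G22Rik), and none was called. Across all 10932 genes 10.8% had no overlap.

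Gadd45g, a stress and growth-arrest gene (chromosome 13, 51846675 to 51848475), read 10.1, 7.07 and 3.37 FPKM in KO and 39.8, 33.8 and 34.7 in RE. The RE livers were tightly grouped above the KO livers and next to the WT livers, which read 39.9, 38.8 and 58.6 FPKM. RE minus KO was 2.34 (95% interval 0.47 to 4.20, unadjusted p = 0.0154, adjusted p = 0.954 with limma). Foxq1, a forkhead transcription factor (chromosome 13, 31558170 to 31560976), read 2.24, 0.987 and 3.04 FPKM in KO, 16.1, 11.7 and 8.00 in RE, and 21.9, 12.0 and 18.6 in WT. RE and WT overlapped above KO. RE minus KO was 2.08 (95% interval 0.70 to 3.46, adjusted p = 0.954), KO was called lower than WT (-2.61, adjusted p = 0.0106), and RE minus WT was -0.53 (adjusted p = 0.689).

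Myc, a transcription factor of growth and ribosome production (chromosome 15, 61985341 to 61990361), read 3.41, 1.30 and 1.52 FPKM in KO and 12.9, 11.6 and 8.26 in RE. WT livers, at 10.5, 6.69 and 11.4 FPKM, shared the RE range. RE minus KO was 2.00 (95% interval 0.53 to 3.47, adjusted p = 0.954). With limma neither KO minus WT (-1.81, adjusted p = 0.113) nor RE minus WT (0.19, adjusted p = 0.911) was called. Phlda1 (chromosome 10, 111506286 to 111508649) read 22.9, 14.6 and 15.0 FPKM in KO and 52.2, 29.6 and 58.2 in RE (1.34, 95% interval -0.20 to 2.88), and 45.9 to 87.9 FPKM in WT. Ribosome biogenesis genes, many of them MYC targets, had a median difference of 0.06 with 0 of 20 called, where 0% of all genes were called. A link between this list and the level of Myc was not tested.

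The spread behind these intervals was estimated over all 18 groups, and the same genes varied widely at other times. Myc ranged from 1.10 to 11.2 FPKM among the 3 KO livers of ZT4 and from 1.19 to 12.6 among the 3 RE livers of ZT16. Gadd45g ranged from 5.2 to 47.7 FPKM among the KO livers of ZT16 and from 4.55 to 52.6 among the WT livers of ZT4. The same liver tended to hold the high values: in 10 of the 18 groups of the series 1 liver was the highest for all 4 of Gadd45g, Myc, Foxq1 and Phlda1, and in 16 of 18 for at least 3 of them. In the RE and WT livers of ZT20 all 3 livers were high, and in the KO livers of ZT20 all 3 were low.

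**Figure D4:**
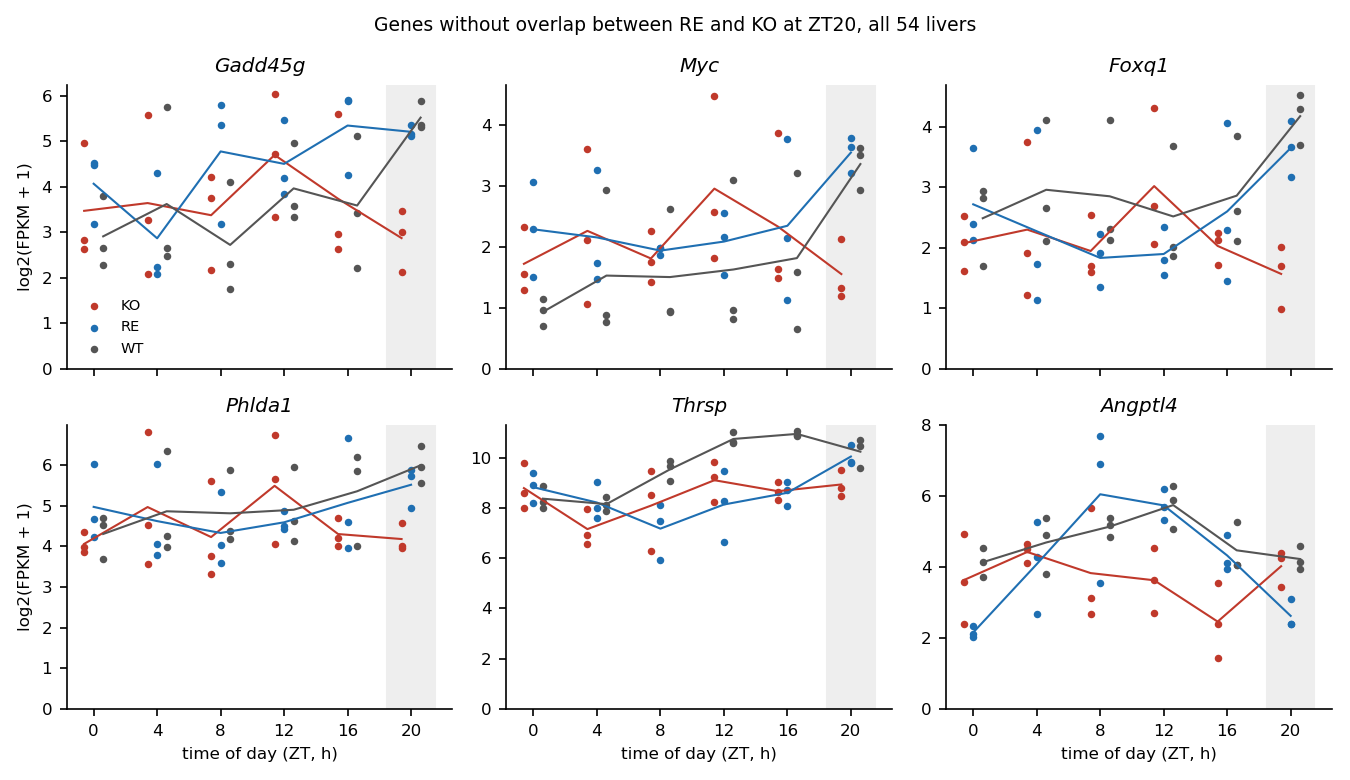
Level of 6 genes in all 54 livers, as log2(FPKM + 1) against time of day, in KO (red), RE (blue) and WT (grey). Each point is 1 liver, lines join the means of 3 livers, points are set slightly apart sideways by genotype, and the shaded band marks ZT20. At ZT20 the RE and KO points do not overlap. For Gadd45g, Myc, Foxq1 and Phlda1 single livers of either genotype reach the ZT20 RE range at other times. For Thrsp no RE liver of another time does (at most 716 FPKM, against at least 876 at ZT20). Single KO livers of ZT0 and ZT12 do, at 889 and 918 FPKM. For Angptl4 RE is the lower group at ZT20.

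Thrsp, a lipogenic gene that responds to thyroid hormone and carbohydrate (chromosome 7, 97412933 to 97417550), read 356, 442 and 735 FPKM in KO and 1468, 910 and 876 in RE. WT livers, at 1394, 1643 and 765 FPKM, overlapped RE and lay above KO. With limma neither KO minus WT (-1.3, adjusted p = 0.183) nor RE minus WT (-0.19, adjusted p = 0.888) was called. RE minus KO was 1.11 (95% interval -0.11 to 2.33, adjusted p = 0.954). Angptl4, a secreted inhibitor of lipoprotein lipase and a PPAR target (chromosome 17, 33774900 to 33781575), read 18.01, 9.81 and 20.2 FPKM in KO and 4.26, 4.24 and 7.60 in RE. WT livers read 23.0, 16.9 and 14.5 FPKM, above RE, and overlapped KO (RE minus KO -1.40, 95% interval -2.87 to 0.07). RE minus WT was not called (-1.6, adjusted p = 0.156 with limma). In RE liver its mean ran from 113 FPKM at ZT8, where single livers spanned 10.7 to 208, to 3.49 at ZT0. The ZT20 mean stood near the low end of these means. Arrdc3, an arrestin-domain gene, read 18.001, 10.6 and 13.2 FPKM in KO and 5.41, 7.88 and 5.37 in RE (-1.04, 95% interval -2.36 to 0.28). Snord15a is a small RNA gene, 8430408G22Rik a gene model and Oaz1-ps a pseudogene whose reads can be shared with its parent gene, and no level is drawn from them.

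Markers of other cells were read as summed FPKM per liver. In whole liver, fewer cells of a type and less RNA per cell cannot be told apart. The 12 Kupffer cell and macrophage markers, none at 0 in all 6 livers, summed to 185 to 231 FPKM in KO, 133 to 205 in RE and 183 to 244 in WT. KO and RE overlapped through Lyz2 in RE liver 1, at 87.4 FPKM against 27.7 to 45.9 in the other 5 livers. Without Lyz2, a choice made after its values were seen, the other 11 markers summed to 139 to 192 FPKM in KO, 105 to 125 in RE and 159 to 207 in WT, so the RE livers lay below the KO and WT livers. 0 of 12 were called. The median difference was -0.42, 11 were negative, and all RE livers lay below all KO livers for 8 of the 12, where 5.73% of all genes did. At ZT16 the median was -0.61 and at ZT0 0.31. Cd5l, a macrophage-secreted protein, read 35.5, 28.8 and 30.6 FPKM in KO and 21.2, 20.5 and 17.7 in RE (-0.65, 95% interval -1.44 to 0.14, adjusted p = 0.954). Csf1r, the receptor for the macrophage growth factor, read 9.39, 6.17 and 7.82 FPKM in KO and 5.49, 5.23 and 5.27 in RE (-0.46, 95% interval -1.04 to 0.13).

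Cd74 and H2-Ab1, of MHC class II antigen presentation, were picked after their values were seen. Cd74, the invariant chain, read 59.0, 41.7 and 43.8 FPKM in KO and 23.7, 27.2 and 21.4 in RE, without overlap (-0.96, 95% interval -2.04 to 0.12, adjusted p = 0.954). H2-Ab1 read 22.7, 17.7 and 17.8 FPKM in KO and 8.73, 12.9 and 6.76 in RE (-0.997, 95% interval -2.23 to 0.24). Neither was called. The lymphocyte markers, 11 of 13 in the table, summed to 4.03 to 8.22 FPKM in KO, 2.57 to 3.89 in RE and 4.76 to 5.93 in WT, so the RE livers lay below the KO and WT livers at these low levels. Of the 5 tested, 0 were called and the median difference was -0.27. The part of either cell type in the class II values was not tested. Endothelial markers summed to 66.7 to 93.8 FPKM in KO and 73.8 to 84.5 in RE, stellate and fibroblast markers to 71.9 to 106 and 89.8 to 106, and bile duct markers to 35.3 to 111 and 60.008 to 118, all overlapping. Of 11 pancreas markers 7 were at 0 in all 6 livers, and the summed 56.6 to 91.1 FPKM came almost entirely from Cela1, at 68.6 to 70.7 in KO, 55.9 to 90.7 in RE and 21.4 to 22.6 in WT.

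Single livers stood apart for some genes. In KO liver 1 Chil3, a macrophage chitinase-like protein, read 46.8 FPKM against 0.0395 and 0.852 in the other KO livers and at most 0.104 in RE. The same liver read 143 FPKM for the acute phase gene Saa2, whose family shares reads, against 15.5 and 36.0, and 115 FPKM for the metallothionein Mt1 against 5.595 and 7.30. The acute phase, complement and coagulation list had a median difference of -0.07 with 0 of 26 called. Without KO liver 1 limma called 0 genes.

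Haemoglobin gave the smallest adjusted p. Hba-a1 read 195, 460 and 162 FPKM in KO and 168, 7.14 and 0.0744 in RE, so RE liver 0 lay in the KO range and the other RE livers far below (-4.42, 95% interval -6.29 to -2.56, adjusted p = 0.254). Hba-a2, its near-identical neighbour, read 20.9, 240 and 7.56 FPKM in KO and 32.1, 470 and 252 in RE, with the sign reversed (2.15, 95% interval -1.57 to 5.87). Reads can be divided between the copies in either way, so neither value is taken as the level of 1 gene. Red cell markers in all summed to 257 to 850 FPKM in KO and 282 to 560 in RE, with overlap.

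The 10 named genes with the smallest p for the difference between ZT20 and the other 5 times were Ddx58, Dhrs4, Hba-a1, Fetub, Ech1, Acadvl, Man1b1, Slc25a12, Anapc4 and Chil3, and none passed. Ddx58, the RNA sensor RIG-I, read 6.01, 6.81 and 7.16 FPKM in KO and 9.15, 9.05 and 9.65 in RE, above KO without overlap (0.43, 95% interval 0.17 to 0.69, adjusted p = 0.954). WT livers read 4.65, 5.30 and 5.99 FPKM, and RE was called higher than WT (0.71, adjusted p = 0.000149), while KO minus WT was 0.28 (adjusted p = 0.177). Ifit1, an interferon-induced gene picked after its values were seen, read 4.63, 4.27 and 6.27 FPKM in KO and 6.46, 11.5 and 12.0 in RE (0.83, 95% interval 0.04 to 1.62, adjusted p = 0.954). Fetub, a secreted liver protease inhibitor, read 336, 444 and 328 FPKM in KO and 191, 275 and 305 in RE, below KO without overlap (-0.53, 95% interval -0.84 to -0.23, adjusted p = 0.954). Slc25a12, a mitochondrial aspartate-glutamate carrier, read 6.55, 7.33 and 6.31 FPKM in KO and 7.96, 9.13 and 8.25 in RE (0.29, 95% interval 0.09 to 0.49). Dhrs4, Ech1 and Acadvl, of lipid and retinoid metabolism, had differences of -0.34, -0.40 and -0.19, with RE liver 2 above or within the KO range for each.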

How the data were processed

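Whole-liver RNA sequencing of 54 libraries was used (3 genotypes, 6 times, 3 livers per group). The authors deposited FPKM, fragments scaled by transcript length and mapped fragments, for 24346 gene symbols. The submitters' processing notes name TopHat and the build mm10. For the TopHat version, the tool that computed FPKM and the gene models, nothing is given in the sources used here. The table holds no counts, so depth is unknown in absolute terms. Relative depth was read from the steps between values of genes above 0 in 2 to 20 libraries. Columns were assigned to groups only.

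Values were taken as log2(FPKM + 1), on which changes of low genes are understated. A gene was tested where any group averaged 1 FPKM or more (10932, leaving out 13414). The 18 group means were fitted with limma 3.58.1 in R 4.3.3 (eBayes with trend, 36 residual degrees of freedom), two-sided, with p adjusted by Benjamini and Hochberg over all genes tested and a call at 0.05. Intervals are 95%, not adjusted. The fit was tested on simulated data.

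The comparison, the gene lists and the genes named were chosen with earlier results of these data known. Named were called genes of at least 5 FPKM without overlap (there were none), all core clock genes, fixed rate-limiting enzymes, and the 10 smallest adjusted p of the difference from the other 5 times; further list members and the size rule were chosen after values were seen. Some genes that these rules select are withheld and not shown singly. Symbols were placed with RefSeq on GRCm38.p6 (23143 matched). Alternatives were no filter on low values, a filter at 5 FPKM, a pseudocount of 0.1, median scaling, quantile normalization, the compared libraries alone, no WT, no trend, weights per genotype, and leaving out each liver.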

Additional observations from a re-analysis of the deposited data

How the results depend on the processing

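The ZT20 count of 0 stayed 0 under the other alternatives run, apart from 1 gene without a filter (Olfr101), 1 without KO liver 0 (Chil3, -3.17, adjusted p = 0.00182) and 1 without RE liver 0 (Hba-a1, -6.37, adjusted p = 6.12e-06), so leaving out 1 liver gave 0 to 1. The difference from the other 5 times gave 0 to 1 on leaving out 1 liver (1 without KO liver 0 and 1 without RE liver 0), and that from ZT16 gave 1 without a filter and 0 to 1 on leaving out 1 liver (1 without RE ZT16 liver 0). The ZT0 count was 1 with a pseudocount of 0.1, 6 without a filter, 1 with a filter at 5 FPKM, and 0 to 1 on leaving out 1 liver (1 without RE ZT0 liver 0). The ZT16 count of 358 was 0 with the compared libraries alone, 4 without WT, 57 with weights per genotype, and 3 to 829 on leaving out 1 liver. RE against WT gave 842 with those libraries alone and 764 to 1092 on leaving out 1 liver, against 1270; it was 764 without RE liver 0 and 819 without WT liver 0 or 2. KO against WT gave 558 to 807 on leaving out 1 liver, against 1024; it was 558 without KO liver 1, 600 without WT liver 2 and 659 without WT liver 1. The cause was not tested. The share of genes with an interval inside 1 log2 unit, 95.4%, stayed between 88.5% and 97.2%, and no member of the 28 functional lists was called under any alternative. The ZT20 count at an unadjusted p under 0.05, 553, was 970 without a filter and 351 with weights per genotype. Over 127 genes and 15 alternatives, 62 of 1898 recomputed differences had another sign, in 38 genes, none of them called. With a pseudocount of 0.1 10 genes moved by more than the spread between livers, among them Nr1d2 (-0.96) and Myc (2.44). No paired analysis was possible because the columns are numbered 0 to 2 and the titles 1 to 3, with nothing that ties them; the replicate block was not run. With 3 livers a group the 95% interval reached 0.285 log2 units to either side for the median gene, and changes within it were not detectable at this precision. This unadjusted width is not the limit of detection, because a call also had to pass the adjustment over all genes. Larger estimated differences also went without a call, such as that of 2 for Myc (adjusted p = 0.954 with limma). Whether such an estimate is a true difference is not shown.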

Other observations

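H2-Eb1, a class II beta chain, read 15.6, 9.91 and 10.5 FPKM in KO and 6.46, 6.69 and 4.67 in RE, without overlap (-0.89, 95% interval -2.03 to 0.24, adjusted p = 0.954 with limma). H2-Aa read 32.1, 24.2 and 22.8 FPKM in KO and 17.5, 20.1 and 9.56 in RE (-0.75, 95% interval -1.97 to 0.46). Lst1, a leukocyte gene, read 5.86, 6.16 and 8.42 FPKM in KO and 3.64, 3.45 and 3.47 in RE (-0.78, 95% interval -1.56 to 0.01). None was called, and all were picked after their values were seen.

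Hamp, the iron hormone hepcidin, read 1258, 378 and 238 FPKM in KO and 132, 749 and 310 in RE, with overlap (-0.62, 95% interval -1.78 to 0.53). WT livers read 3066 to 3620 FPKM, and Hamp was called lower than WT in RE (-3.43, adjusted p = 4e-05) and in KO (-2.81, adjusted p = 0.000704). Tfrc, the transferrin receptor, read 7.03, 13.1 and 19.2 FPKM in KO and 29.8, 19.5 and 17.96 in RE (0.79, 95% interval 0.00 to 1.59, adjusted p = 0.954). Actg1, a cytoskeletal actin, read 57.4, 86.7 and 78.0 FPKM in KO and 203, 92.9 and 161 in RE, without overlap (0.98, 95% interval 0.25 to 1.71, adjusted p = 0.954).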
